A study of Mus musculus with 2 samples.

Results

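The genes described here were 8 genes of the melanocyte lineage, Pmel, Mlana, Dct, Tyrp1, Tyr, Mitf, Sox10 and Ptgds, taken by symbol from the 31053 genes of the deposited count matrix, in which each symbol occurred once. They were measured by single-cell RNA sequencing of live CD45+ cells sorted from B16 tumours, which grow from a mouse melanoma cell line. There was 1 library per genotype, each of pooled cells from several host mice of 8 weeks. The mice labelled WT were Mettl3 fl/fl with both Lyz2 alleles intact. The mice labelled KO were Mettl3 fl/fl Lyz2 cre/+, in which Cre acts on the RNA methyltransferase gene Mettl3 in macrophages and monocytes. The study reports that the loss of Mettl3 mRNA in KO macrophages was partial. It adds that most granulocytes and a few dendritic cells also lose METTL3. B16 cells were given to the mice from outside and carried no Cre in either group. With 1 library per genotype no test between genotypes was possible. Intervals are given at 95% and describe counting error alone, so a difference beyond them is one between these 2 libraries. Levels are given as UMIs (unique molecular identifiers, the counted RNA molecules) per 1000000 UMIs of the same group of cells, written CPM.

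Melanocytes make pigment in melanosomes, organelles in which PMEL forms the fibrils on which melanin is laid down and MLANA takes part in their maturation. Tyrosinase (Tyr) starts melanin synthesis from tyrosine, and dopachrome tautomerase (Dct) and tyrosinase-related protein 1 (Tyrp1) act on later intermediates. SOX10, a transcription factor of the neural crest, activates Mitf, whose product is the master regulator of these genes in pigment cells, and Mitf is also used by macrophages, osteoclasts and mast cells. Ptgds encodes a prostaglandin D synthase that pigment cells and cells of the brain lining express.

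Stretches of the Dct, Tyrp1 and Tyr promoters are printed because the pigment enzymes share in them the M-box, the element that MITF is known to bind. The sequences are those of RefSeq on GRCm38.p6, each of 30 bases read in the direction of transcription, with the M-box in capitals.

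Dct, chr14:118052378-118052407, minus strand: gcacttagggTCATGTGCTaacaaagagga

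Tyrp1, chr4:80834156-80834185, plus strand: ggggagggagTCATGTGCTgcctagtagtt

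Tyr, chr7:87493515-87493544, minus strand: aaaaagttagTCATGTGCTttgcagaagat

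The first base of the element lay 151 bases before the RefSeq start of Dct, 47 bases before that of Tyrp1 and 22 bases before that of Tyr. In the GENCODE M21 annotation 1 transcript of Tyrp1 has an exon that covers the element, while no annotated exon covers it in Dct or Tyr. The 9 letters TCATGTGCT, searched on both strands of the 250 bases before the start, occurred in 110 of 32851 RefSeq promoters (0.335%). Their inner 6 letters CATGTG occurred in 4025 promoters (12.3%), and the E-box CACGTG in 1978 (6.02%). The table held 7 promoters of 5 of the 8 genes, and the 3 promoters of Mitf and that of Ptgds did not contain these 9 letters or the inner 6. A match of letters is a description of the sequence and was not tested for binding.

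All 8 genes were protein-coding in GENCODE M21, whose coordinates are on GRCm38. Pmel lay on chromosome 10 from 128704195 to 128720238, Mlana on chromosome 19 from 29697824 to 29708634, and Dct on chromosome 14 from 118012790 to 118052244. Tyrp1 lay on chromosome 4 from 80834123 to 80851719, Tyr on chromosome 7 from 87424771 to 87493512, and Mitf on chromosome 6 from 97807052 to 98021349. Sox10 lay on chromosome 15 from 79154908 to 79165240 and Ptgds on chromosome 2 from 25466709 to 25470046. Pmel overlaps Cdk2 and Dgka, Dct overlaps 4930435M08Rik, and Mitf overlaps Gm15531, each on the opposite strand. Gm15531 was not among the genes of the matrix. Low counts of Pmel, Dct and Mitf outside melanoma cells are therefore less certain than those of genes with no such neighbour.

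The library labelled WT held 5895 barcodes with 45963969 UMIs and the library labelled KO 8446 barcodes with 54052317 UMIs. The filter on genes and mitochondrial UMIs kept 5661 and 8157 barcodes with medians of 4354 and 3740 UMIs. In macrophage-like cells Mettl3 was at 9.83 and 10.9 CPM in WT and KO, but 3' counts need not cover the removed part of the gene and do not check the labels. Lyz2, whose locus carries Cre in the KO mice, was at 5803 and 2631 CPM in the same cells. The libraries shared 13 barcode sequences.

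Melanoma cells were found in both CD45+ libraries. A barcode was called a melanoma cell where the 5 pigment genes (Pmel, Mlana, Dct, Tyrp1 and Tyr) reached 1000 CPM with at least 3 of them detected and where 8 leucocyte genes stayed under 25% of the level of the library's median barcode. This gave 141 of 5661 kept barcodes labelled WT (2.49%, interval 2.10 to 2.93) and 239 of 8157 labelled KO (2.93%, 2.57 to 3.32), and their log2 ratio of 0.23 (KO over WT) had an interval from -0.07 to 0.53. Melanoma cells carried 13.7% and 15.5% of the kept UMIs, with medians of 46788 UMIs per barcode in WT and 35710 in KO. Another 22 barcodes labelled WT and 16 labelled KO were high in pigment genes without being low in leucocyte genes and were not called melanoma cells, with medians of 2774 and 2484 UMIs and of 6.5 and 8 pigment gene UMIs and with up to 690 and 761 in single barcodes. Near the pigment threshold, 11 and 13 leucocyte-low barcodes lay between 500 and 2000 CPM of the pigment genes, and with the threshold at 500 or at 2000 CPM the gate called 141 barcodes in WT and 239 or 238 in KO. A gate on low leucocyte genes that used no member, and left out barcodes with fibroblast or endothelial markers, called 239 barcodes in WT and 372 in KO.

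**Figure D1:**
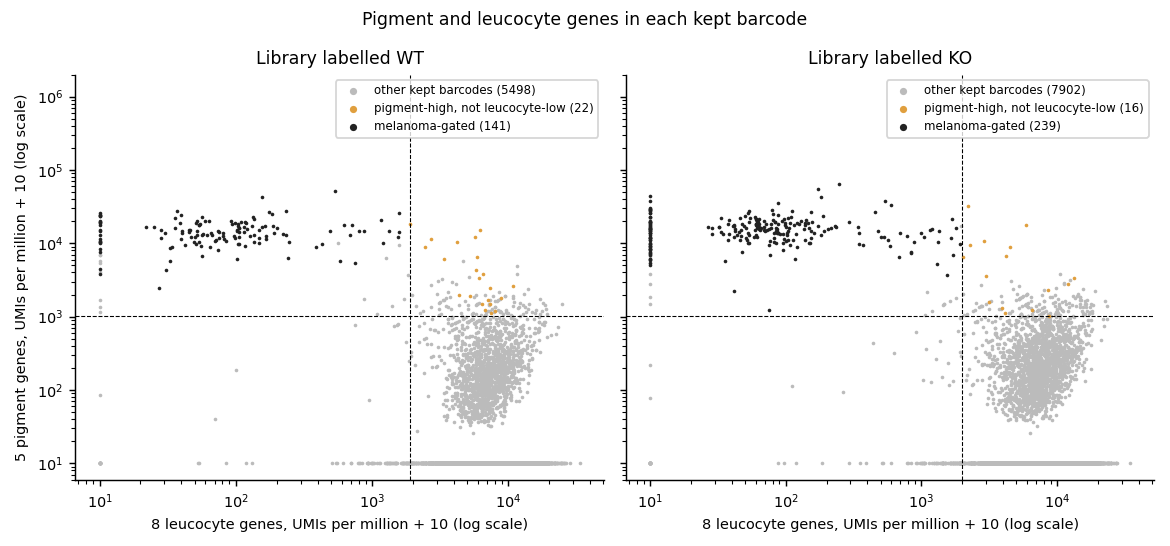
Each point is a kept barcode, with the summed level of 8 leucocyte genes on the horizontal axis and that of the 5 pigment genes on the vertical axis, both in CPM plus 10 on log scales, and dashed lines at the thresholds. The 141 WT and 239 KO melanoma cells lie apart from the immune cells, and 22 and 16 orange points are high in pigment genes without being low in leucocyte genes.

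The label was checked against Sox10, which the gate did not use. It was detected in 83.7% of the WT and 83.3% of the KO melanoma cells, against 1.27% and 0.996% of the macrophage-like cells. The 8 leucocyte genes, low by the gate itself and therefore no check, were all detected, at 145 and 180 CPM in melanoma cells against 6471 and 6512 in macrophage-like cells, and Ptprc, which encodes the CD45 used for the sort, was at 9.43 and 10.5 against 327 and 343. Of the melanoma cells, 27 labelled WT and 37 labelled KO also carried enough markers of an immune class to meet its gate, 18 and 29 of them those of macrophages. Their medians of 54209 and 55605 UMIs were above those of the other melanoma cells (44698 and 33343). Without them, the share of all member UMIs that lay in melanoma cells was 70.9% in WT and 74.7% in KO, in place of 94.0% and 95.7%. Whether these barcodes hold 2 cells was not tested. No sequence of a melanoma barcode occurred among the melanoma cells of the other library, and 1 sequence of a KO melanoma barcode occurred elsewhere in the WT library.

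The melanosomal structural genes come first. Pmel was at 2374 CPM in WT melanoma cells (2336 to 2412) and at 2768 in KO melanoma cells (2733 to 2804). Mlana was at 1689 (1657 to 1722) and 1457 (1431 to 1483). Pmel was therefore higher and Mlana lower in the KO library, by log2 ratios of 0.22 (0.19 to 0.25) and -0.21 (-0.25 to -0.18). A Pmel UMI was found in 99.3% of the WT and 93.7% of the KO melanoma cells, with 15 KO cells and 1 WT cell at 0, and a Mlana UMI in 96.5% and 96.2%. As the mean of cells the log2 ratios were 0.088 for Pmel and -0.12 for Mlana, and after thinning they were 0.17 (-0.02 to 0.36) and -0.36 (-0.61 to -0.10).

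The enzymes of melanin synthesis were all slightly higher in the KO library. Dct was at 7447 CPM in WT (7379 to 7515) and 8231 in KO (8170 to 8293), a log2 ratio of 0.14 (0.13 to 0.16). It was the only member with a UMI in every melanoma cell of both libraries. Tyrp1 was at 2341 (2303 to 2379) and 2445 (2412 to 2479), a log2 ratio of 0.06 (0.03 to 0.09). Tyr, which starts the pathway, was at 317 (303 to 331) and 375 (362 to 389), a log2 ratio of 0.24 (0.16 to 0.33). The intervals of Dct, Tyrp1 and Tyr lay above 0, and the largest of these ratios was 1.18-fold. As the mean of cells the log2 ratio of Tyr was 0.092 and that of Tyrp1 0.16, and Tyrp1 was also at 0.16 (0.13 to 0.20) without melanoma barcodes that met another class. After thinning each cell to 1000 UMIs the intervals of Tyr (-0.35 to 0.65) and Tyrp1 (-0.13 to 0.27) reached 0, while that of Dct (0.10 to 0.32) did not.

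Of the transcription factors, Mitf showed the largest ratio of the 8 genes. It was at 276 CPM in WT (264 to 290) and 371 in KO (358 to 384), a log2 ratio of 0.42 (0.34 to 0.51). Sox10 was at 184 (173 to 195) and 207 (197 to 217), a log2 ratio of 0.17 (0.06 to 0.28). Ptgds was at 1981 (1946 to 2016) and 2163 (2132 to 2195), a log2 ratio of 0.13 (0.09 to 0.16). For Sox10 and Ptgds the direction turned when each cell had equal weight, at 194 and 192 CPM for Sox10 and 2328 and 2001 for Ptgds in WT and KO, and again after thinning each cell to 1000 UMIs, with log2 ratios of -0.50 (-1.20 to 0.21) and -0.26 (-0.47 to -0.06). Mitf kept its direction under all 12 alternatives, from 0.41 to 0.53, with an interval that reached 0 after thinning (-0.13 to 1.08). Ptgds ranged from 0 to 49818 CPM among WT cells and from 0 to 13216 among KO cells.

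The ratios of the members were set beside those of all genes. Of 3023 genes at 50 CPM or more in melanoma cells of either library, 7 (0.232%) had a log2 ratio of at least 1 either way, and 0 of the 8 members did. By counting intervals, 20.3% of these genes lay above 0 and 31.7% below, against 7 and 1 of the members. Such intervals narrow as counts rise, and the members had from 1149 (Sox10 in WT) to 68710 UMIs (Dct in KO). These shares were not compared at equal counts. The median log2 ratio of the members was 0.16, that of all 3023 genes was -0.03, their median absolute log2 ratio was 0.15, and the middle 90% of them ran from -0.42 to 0.37. Mitf lay at percentile 96.6 of these ratios and Mlana at 20.7. Summed over the 8 genes the level was 16609 in WT and 18018 in KO, a log2 ratio of 0.12 (0.11 to 0.13).

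**Figure D2:**
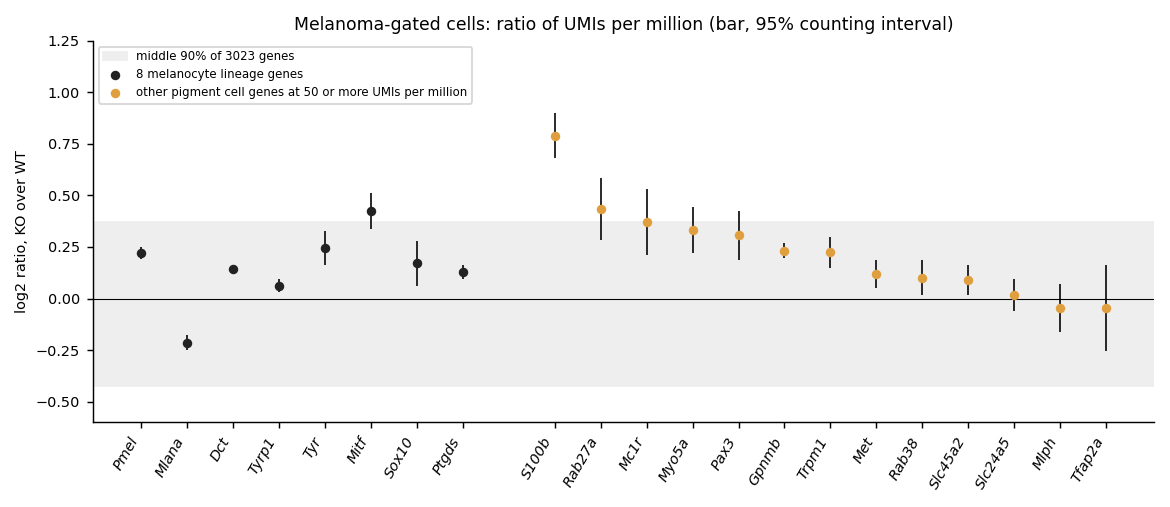
Log2 ratios of CPM in melanoma cells, KO over WT, with 95% counting intervals, for the 8 members (black) and for 13 other pigment cell genes (orange). The grey band holds the middle 90% of 3023 genes, from -0.42 to 0.37, and S100b at 0.79, Rab27a at 0.43 and Mitf at 0.42 lie above it, Mc1r lies at its upper edge (0.37) and Mlana lies at -0.21.

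The 2 libraries differed in the depth of their melanoma cells, so levels were also read within depth groups. In the 47 shallowest WT and 80 shallowest KO cells, with medians of 5055 and 5334 UMIs, Pmel was at 3368 and 4146 CPM, and in the 47 and 79 deepest, with medians of 66272 and 56471, at 2198 and 2398. Tyr was also lower in the deepest cells, at 265 against 510 in the shallowest of WT and 321 against 617 of KO. Pmel, Dct, Tyr, Mitf and Sox10 were higher in KO in all 3 depth groups, with Mitf at 278, 284 and 271 in WT against 420, 425 and 330 in KO from shallow to deep. Mlana was lower in KO in all 3 groups, at 1483, 1538 and 1402 against 1615, 1605 and 1758 in WT. Tyrp1 and Ptgds had no single direction over the depth groups.

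A gene inside the gate added to the sum by which cells were called, so each pigment gene was also measured in cells gated on the other 4 pigment genes, at least 2 of them detected. These gates held 141 to 150 WT and 241 to 248 KO barcodes. The levels were 2372.5 and 2767 CPM for Pmel, 1687 and 1460 for Mlana, and 7447 and 8257 for Dct. Tyrp1 was at 2339 and 2452 and Tyr at 317 and 375. The log2 ratios were 0.22 for Pmel, -0.21 for Mlana, 0.15 for Dct, 0.07 for Tyrp1 and 0.24 for Tyr.

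Within each library the members varied several-fold between melanoma cells. The 90th percentile of Dct was 3.59 times its 10th percentile in WT and 3.13 times in KO. For Pmel it was 8.16 times in KO and 3.79 times in WT, and for Mlana 4.996 times in KO and 5.93 times in WT. The melanoma cells of KO included 26 of 239 with under 1000 UMIs and those of WT 6 of 141, and the part of this difference in the spread was not tested. Median levels were 2382 and 2645 CPM for Pmel, 1513 and 1274 for Mlana, and 171 and 294 for Mitf in WT and KO. The difference in Mitf was therefore also seen in the typical cell, where the median count was 7 UMIs in WT and 11 in KO.

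**Figure D3:**
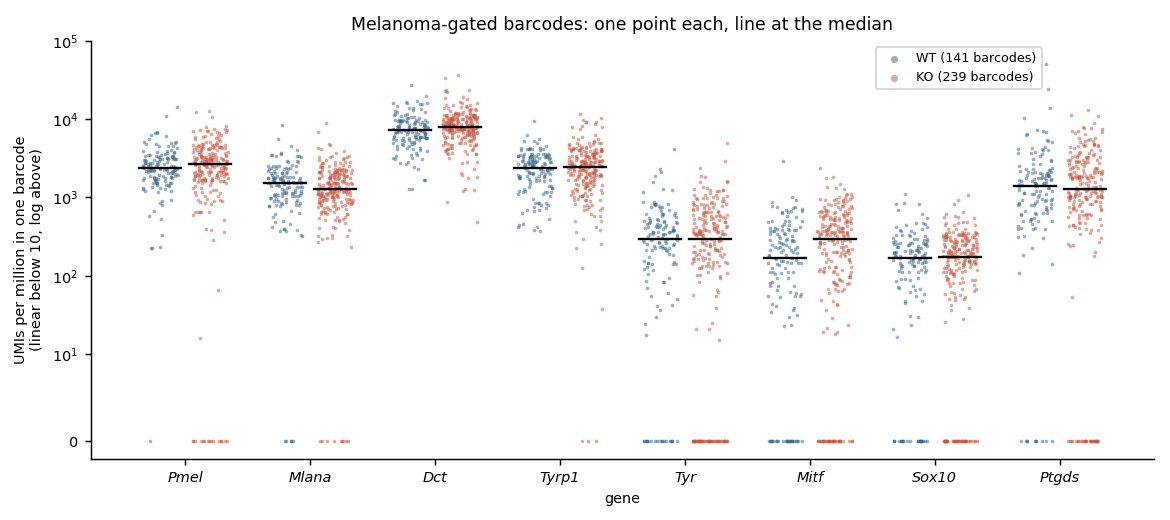
Level of each member in CPM (linear below 10, log above) in each of 141 WT and 239 KO melanoma cells, with a line at the median. The libraries overlap for all 8 genes, the medians of Mitf are 171 in WT and 294 in KO, and a WT barcode with 49818 CPM of Ptgds stands above the rest.

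Across single melanoma cells the levels of some member pairs were related. Spearman's rho between levels of Pmel and Tyrp1, the highest pair in WT, was 0.50 over 141 WT cells and 0.42 over 239 KO cells. That of Pmel and Dct, the highest pair in KO, was 0.34 and 0.54, that of Dct and Tyr 0.46 and 0.41, and that of Mitf and Sox10 0.42 and 0.41. These levels share each cell's total count, and Mitf itself had a rho of 0.38 and 0.18 with that total. After thinning each cell to 1000 UMIs the rho of Mitf and Sox10 was -0.09 and 0.08, and the highest value of any pair was 0.33 in WT (Dct and Tyrp1) and 0.31 in KO (Pmel and Tyrp1), so that at this depth no further order among the members could be read.

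Nearly all RNA of the pigment genes lay in melanoma cells. The gate used these 5 genes, so a high share of their UMIs in the called cells is partly set by it. The gate on low leucocyte genes that used no member avoids this. With it the share of all member UMIs was 94.1% in WT and 95.8% in KO, against 94.0% and 95.7% with the main gate. Of 93512 UMIs of the 5 pigment genes in WT, 94.8% (94.6 to 94.9) lay in melanoma cells, 2.57% in the 22 pigment-high barcodes that were not leucocyte-low and 2.68% elsewhere. Of 132166 in KO, 96.5% (96.4 to 96.6) lay in melanoma cells, 1.23% in the 16 such barcodes and 2.28% elsewhere. For the single genes Pmel, Mlana, Dct, Tyrp1, Tyr, Sox10 and Ptgds, the share in melanoma cells ran from 92.2% to 96.1% in WT and from 94.6% to 97.1% in KO. Mitf was the exception, with 59.3% (57.5 to 61.1) of 2915 UMIs in WT and 68.7% (67.3 to 70.0) of 4512 in KO. Macrophage-like cells alone held 19.8% and 12.9% of all Mitf UMIs, against 1.20% and 1.18% of the pigment gene UMIs.

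The remaining pigment gene RNA was followed in 10 immune classes, each gated on 3 or more detected markers of a list of 6 and on no member. They held 3711 barcodes labelled WT and 5350 labelled KO, and 31.7% and 31.3% of the barcodes met no gate. The pigment genes were at 82.4 CPM over all immune classes in WT (78.9 to 85.98) and at 81.2 in KO (78.0 to 84.4), that is 0.562 and 0.467 UMIs per barcode. By class they ran from 23.3 in cDC2-like cells to 135 in monocyte-like cells in WT, and from 45.5 in cDC1-like cells to 260 in granulocyte-like cells in KO. Melanoma cells were 105-fold and 58.8-fold above the highest immune class.

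A few barcodes set some of these levels. In WT monocyte-like cells a single barcode with 367 pigment gene UMIs held 59.3% of the class total, and without the 5 pigment-high barcodes of that class the level was 49.7 in place of 135. In KO macrophage-like cells a barcode with 359 UMIs held 22.9% of the total, and in WT T-like cells a barcode with 44 UMIs held 33.1%. In KO granulocyte-like cells 1 barcode with 24 UMIs held 34.3%, and without it the level was 171 in place of 260, still the highest immune class of KO. Without pigment-high barcodes the levels were 73.9 and 76.7 in macrophage-like cells of WT and KO, 49.7 and 54.7 in monocyte-like cells, while T-like cells were at 48.9 and 57.8.

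Macrophage-like cells were compared in pigment gene RNA with T-like cells, which are not phagocytes, and this pair does not stand for all phagocytes. As plain ratios over T-like cells in WT and KO, monocyte-like cells were at 1.77 (1.47 to 2.15) and 0.918 (0.753 to 1.13). Granulocyte-like cells were at 1.51 (1.14 to 1.99) and 4.27 (3.14 to 5.78). For cDC1-like cells the ratios were 0.415 (0.276 to 0.609) and 0.75 (0.525 to 1.06). For cDC2-like cells they were 0.305 (0.175 to 0.501) and 0.871 (0.577 to 1.28). Pigment-high barcodes are included in these ratios. In WT the level was 73.9 CPM in 1339 macrophage-like cells (69.6 to 78.3) and 76.2 in 441 T-like cells (63.8 to 90.4), and in KO it was 102 in 1706 macrophage-like cells (97.4 to 108) and 60.7 in 498 T-like cells (50.4 to 72.6). The log2 ratio of macrophage-like over T-like cells was -0.05 in WT (-0.31 to 0.22) and 0.75 in KO (0.49 to 1.03). Without mitochondrial, ribosomal protein and haemoglobin UMIs in the totals it was -0.28 (-0.54 to -0.01) in WT, with macrophage-like cells lower, and 0.52 (0.26 to 0.80) in KO. Without pigment-high barcodes it was 0.60 (0.28 to 0.93) in WT and 0.41 (0.13 to 0.70) in KO. Thinned to 1000 UMIs the KO value was -0.04 (-0.49 to 0.43). Counted per barcode, macrophage-like cells held 0.836 and 0.918 pigment gene UMIs against 0.302 and 0.243 in T-like cells, but their medians of 9640 and 7301 UMIs were also above the 2323 and 1966 of T-like cells.

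Depth was matched in 2 ways, which gave different pictures. Among macrophage-like cells, 47.8% in WT and 41.3% in KO had a pigment gene UMI, and the share among T-like cells was 16.6% and 20.5%. After thinning to 1000 UMIs the shares were 8.66% (7.18 to 10.3) and 9.27% (7.91 to 10.8) in macrophage-like cells, and 6.32% (4.21 to 9.07) and 10.4% (7.72 to 13.6) in T-like cells, with 45 and 66 macrophage-like and 14 and 45 T-like barcodes too shallow to enter. The intervals of the classes overlapped in both libraries, and no difference in the share was detectable at this depth. Barcodes were also compared within 4 bins of total UMIs, by pigment gene UMIs per barcode. At 500 to 2000 UMIs macrophage-like cells held 0.452 (0.343 to 0.586) in WT and 0.304 (0.229 to 0.396) in KO, against 0.118 (0.0730 to 0.180) and 0.176 (0.128 to 0.236) in T-like cells. At 2000 to 4000 UMIs they held 0.465 (0.354 to 0.599) and 0.349 (0.280 to 0.431), against 0.527 (0.416 to 0.659) and 0.350 (0.258 to 0.465), where the WT value of T-like cells includes the barcode with 44 UMIs. At 4000 to 8000 UMIs they held 0.584 (0.501 to 0.678) and 0.538 (0.476 to 0.607), against 0.328 (0.206 to 0.497) and 0.224 (0.112 to 0.402). At 8000 to 16000 UMIs they held 0.815 (0.736 to 0.901) and 0.936 (0.855 to 1.02), against 0.2 (0.0804 to 0.412) in 35 and 0.25 (0.114 to 0.475) in 36 T-like cells. The intervals were apart, with macrophage-like cells higher, in 3 of the 4 bins of WT and in the 2 deepest bins of KO, and overlapped in the others.

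Between genotypes, macrophage-like cells of the KO library had a higher pigment gene level, with a log2 ratio of 0.47 (0.36 to 0.58), and this value rested on few barcodes. Without the barcode with the most pigment gene UMIs of each library the log2 ratio was 0.12 (-0.00 to 0.24), and without the 5 pigment-high barcodes, all of them in KO, it was 0.05 (-0.07 to 0.17). No member reached 50 CPM in macrophage-like cells, so none was among the 2911 genes compared there, of which 12 (0.412%) had a log2 ratio of at least 1 either way.

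The make-up of the pigment gene UMIs differed between melanoma cells and macrophage-like cells. Outside pigment-high barcodes, Pmel made up 34.3% (31.5 to 37.2) of the pigment gene UMIs in WT and 32.1% (29.4 to 34.9) in KO macrophage-like cells, against 16.8% (16.5 to 17.0) and 18.1% (17.9 to 18.3) in melanoma cells. Dct made up 33.6% (30.8 to 36.4) and 35.7% (33.0 to 38.5), against 52.6% (52.2 to 52.9) and 53.9% (53.6 to 54.2). Macrophage-like cells thus held relatively more Pmel and less Dct than melanoma cells in both libraries. Lymphocytes (T-like, NK-like and B-like cells together) had Dct at 37.5% (28.8 to 46.8) and 40.9% (33.0 to 49.3), below melanoma cells, and Pmel at 30% (22.0 to 39.0) and 24.2% (17.5 to 31.9), above melanoma cells in WT only, since the KO interval holds the melanoma value.

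**Figure D4:**
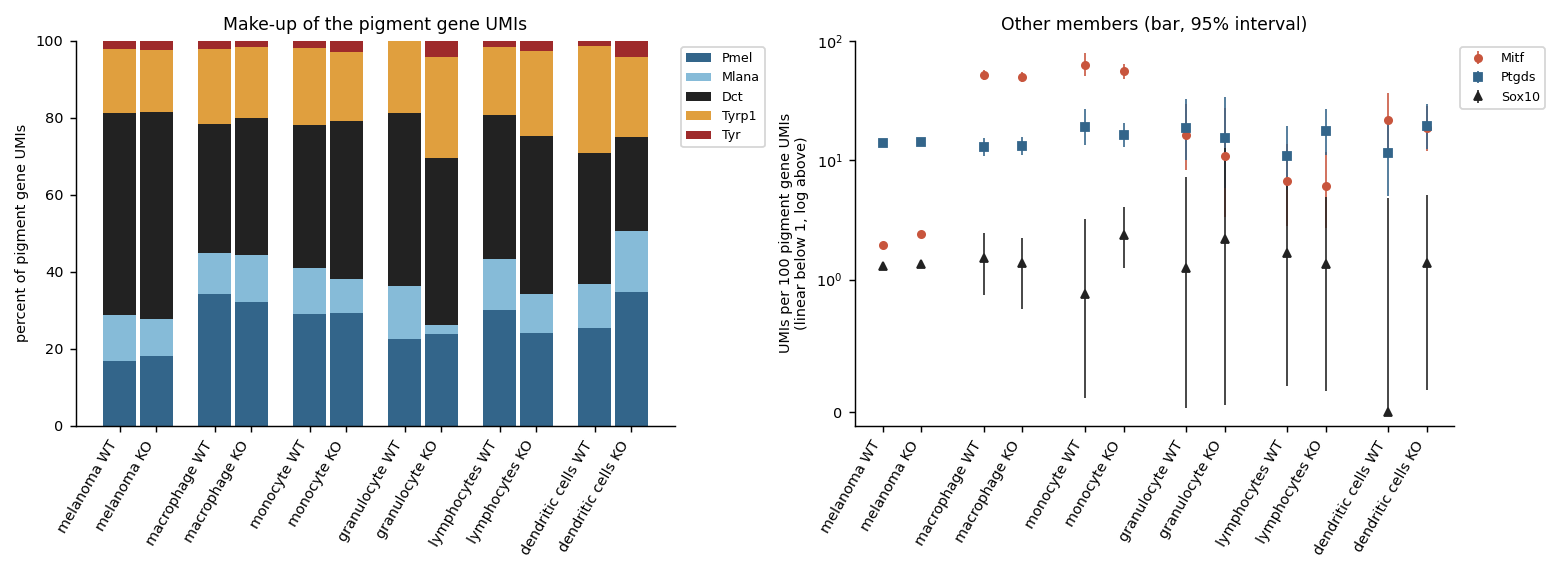
Left, percent of the pigment gene UMIs that each of the 5 pigment genes made up, by class and library, without pigment-high barcodes outside melanoma cells. Right, UMIs of Mitf, Ptgds and Sox10 per 100 pigment gene UMIs (linear below 1, log above) with 95% intervals, where Mitf is at 1.95 and 2.43 in melanoma cells and at 51.5 and 49.7 in macrophage-like cells.

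Relative to the pigment genes, Ptgds and Sox10 of macrophage-like cells had intervals that held or overlapped those of melanoma cells, and Mitf was far higher. Per 100 pigment gene UMIs, Ptgds was at 14.0 (13.7 to 14.3) and 14.2 (13.9 to 14.4) in WT and KO melanoma cells and at 12.9 (10.8 to 15.4) and 13.1 (11.0 to 15.5) in macrophage-like cells without pigment-high barcodes. Sox10 was at 1.297 and 1.35 in melanoma cells and at 1.52 (0.881 to 2.44) and 1.37 (0.780 to 2.23) in those macrophage-like cells, from 17 and 16 UMIs. Mitf was at 1.95 and 2.43 in melanoma cells, at 51.5 (46.5 to 57.0) and 49.7 (44.9 to 54.9) in macrophage-like cells, at 63.1 (50.8 to 78.2) and 55.3 (47.9 to 63.7) in monocyte-like cells, and at 6.67 (2.81 to 13.6) and 6.04 (2.71 to 11.8) in lymphocytes. All 3 of these immune groups were above melanoma cells in Mitf, the myeloid ones by the wider margin.

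Mitf was thus followed class by class. It was at 38.1 CPM in WT macrophage-like cells (35.0 to 41.3) and 37.9 in KO (34.9 to 41.1), and at 39.1 (33.6 to 45.2) and 30.2 (26.9 to 33.8) in monocyte-like cells. Granulocyte-like cells followed at 16.8 (8.95 to 28.7) and 18.5 (6.02 to 43.3), then pDC-like cells at 10.2 (1.23 to 36.7) and 15.2 (4.14 to 38.9), and cDC2-like cells at 11.6 (5.32 to 22.1) and 7.78 (2.52 to 18.2). T-like cells were at 7.45 (3.97 to 12.7) and 4.02 (1.73 to 7.91), and cDC1-like cells at 5.58 (2.05 to 12.2) and 11.4 (5.88 to 19.9). NK-like cells had 0 UMIs in both libraries, for which the Poisson upper bounds are 22.8 and 14.0 CPM and a limit of 3 counts is 18.6 and 11.4, and mature DC-like cells had 0 in WT (upper bound 6.35, limit of 3 counts 5.16) and 7.73 (2.84 to 16.8) in KO. B-like cells had a single UMI in each library.

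In order of level, melanoma cells stood first, and macrophage-like and monocyte-like cells had the next highest values. From granulocyte-like cells downwards each class had an interval that overlapped that of the next, and in KO those of granulocyte-like, pDC-like and B-like cells reached the level of monocyte-like cells. Those of KO granulocyte-like and pDC-like cells also reached the level of macrophage-like cells, so that these classes could not be placed below them. In WT, macrophage-like and monocyte-like cells did not differ beyond their intervals, with a ratio of monocyte-like over macrophage-like cells of 1.03 (0.864 to 1.22). In KO that ratio was 0.796 (0.691 to 0.916). A single WT monocyte-like barcode held 36 of the 179 Mitf UMIs of its class (20.1%), and without it the level was 31.5 CPM in place of 39.1. Macrophage-like cells were 5.11-fold above T-like cells in WT (2.96 to 9.65) and 9.44-fold in KO (4.76 to 22.0). A single WT T-like barcode held 6 of the 13 Mitf UMIs of its class. Without pigment-high barcodes the log2 ratio of macrophage-like over T-like cells was 3.24 in WT (2.19 to 4.56) and 3.24 in KO (2.25 to 4.46). Melanoma cells were 7.27-fold (6.61 to 8.00) and 9.79-fold (8.95 to 10.7) above macrophage-like cells for Mitf, against 300.3-fold and 201-fold for Dct and 164-fold and 186-fold for Sox10.

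Melanoma, macrophage-like and T-like cells kept this order at equal depth. Of macrophage-like cells, 30.8% in WT and 24.4% in KO had a Mitf UMI, against 1.81% and 1.61% among T-like cells. After thinning to 1000 UMIs the shares were 3.71% (2.75 to 4.89) and 3.29% (2.48 to 4.27) against 0.937% (0.256 to 2.38) and 0.221% (0.00559 to 1.22), and in melanoma cells 22.2% (15.5 to 30.2) and 27.2% (21.4 to 33.7). Between the libraries, Mitf in macrophage-like cells had a log2 ratio of -0.00 (-0.17 to 0.16), against 0.42 (0.34 to 0.51) in melanoma cells. Whether the Mitf ratios of melanoma and macrophage-like cells differ by genotype was not tested.

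The other members were below their melanoma level in every immune class, most with wide intervals. Pmel ran from 5.58 to 30.9 CPM over the 10 classes in WT and from 13.3 to 44.5 in KO, and Mlana from 1.29 to 18.1 and from 3.80 to 11.98. Tyrp1 ran from 0 to 23.8 and from 8.54 to 63.1, and Dct from 5.08 to 61.9 and from 11.4 to 134. Tyr was at 0 in 5 classes of WT and 2 of KO and reached 12.4 and 7.60, and Sox10 was at 0 in 6 and 4 classes and reached 1.29 and 3.71. Ptgds ran from 0 to 22.1 and from 7.60 to 44.5. The highest KO values of Pmel, Dct, Tyrp1, Sox10 and Ptgds were those of granulocyte-like cells, the shallowest class with a median of 1058 UMIs. The barcode with 24 pigment gene UMIs held 16 of their 36 Dct UMIs, 5 of 17 of Tyrp1 and 5 of 12 of Ptgds, and without it these levels were 74.6, 44.7 and 26.1 in place of 134, 63.1 and 44.5. The Sox10 value was a single UMI. Whether this RNA was free, attached or taken up was not tested. The 4 haemoglobin genes, a reference for RNA from outside the cell, had 602 UMIs in the kept barcodes of WT, 188 of them in 1 macrophage-like barcode, and 77 in those of KO, so that the libraries were not alike in it.

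**Figure D5:**
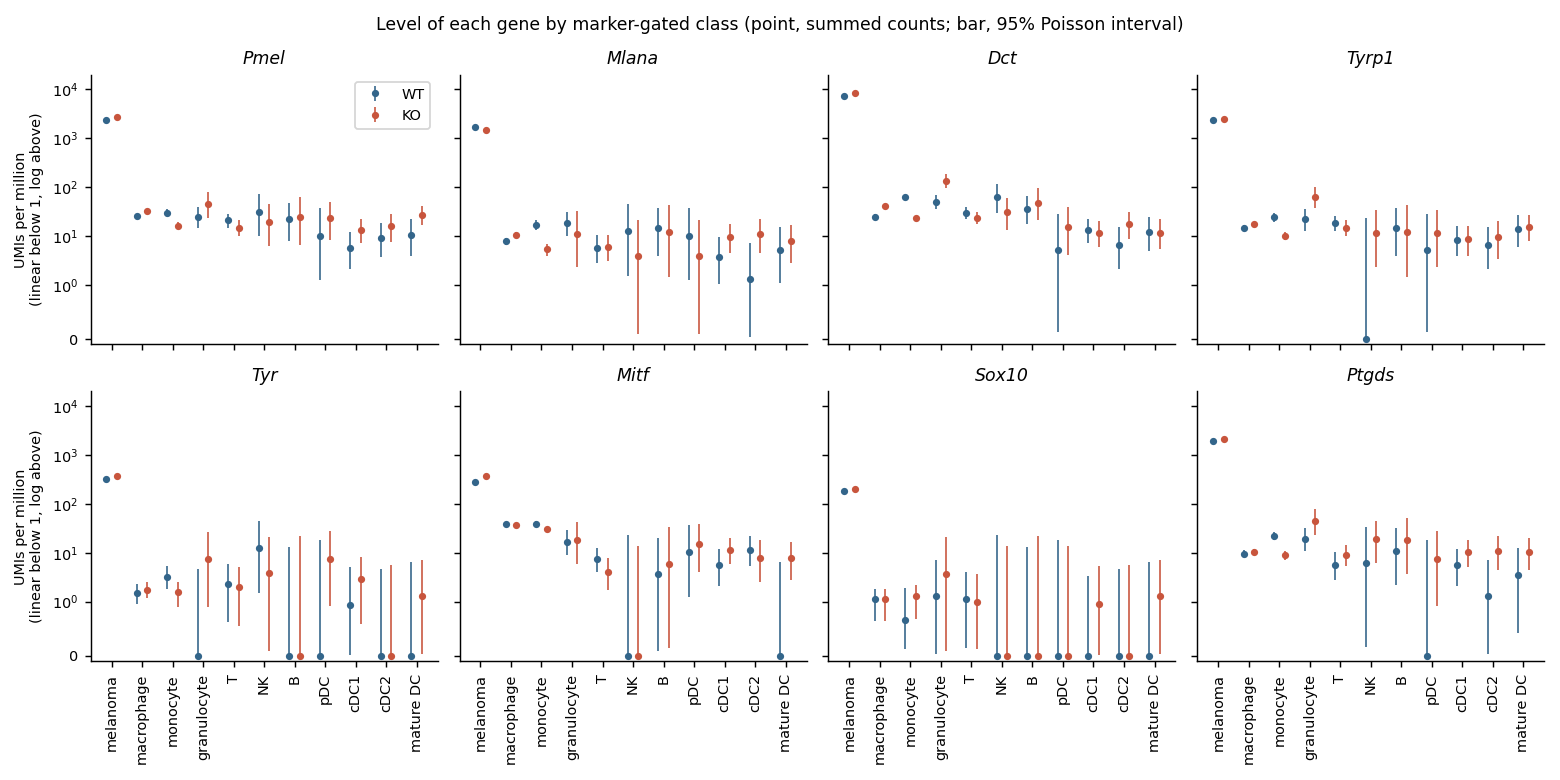
Level of each member in CPM (linear below 1, log above) in melanoma cells and 10 immune classes of the WT and KO libraries, with 95% Poisson intervals. Melanoma cells are highest in all 8 panels, and Mitf is at 38.1 and 37.9 in macrophage-like cells and at 7.45 and 4.02 in T-like cells.

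A list of 22 other genes of pigment cells was read in the same cells. Of these, 19 were higher in melanoma cells than in macrophage-like and T-like cells in both libraries, 13 reached 50 CPM in both, and 3 (Lef1, Ednrb and Mia) stayed under 1. Gpnmb, a melanosomal glycoprotein gene related to Pmel, was at 1589 and 1865 CPM in WT and KO melanoma cells and at 172 and 204 in macrophage-like cells. The transporter genes Slc45a2 and Slc24a5 were at 414 and 441 and at 380 and 384, the channel gene Trpm1 at 355 and 415, and the melanocortin receptor gene Mc1r at 80.8 and 104. The melanosome traffic genes Rab38, Rab27a, Myo5a and Mlph were at 300 and 321, 88.6 and 120, 165 and 207, and 173 and 168. Rab27a was also at 59.0 and 54.2 in T-like cells and Myo5a at 82.2 and 81.7 in macrophage-like cells.

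Over all 22 genes, 13 had log2 ratios with intervals above 0 and 2 below 0. The 2 lower in KO were Kit, a receptor gene of melanoblasts, at 12.5 and 6.23 CPM (-1.002, -1.54 to -0.48), and Sox9, a transcription factor gene related to Sox10, at 14.7 and 10.1 CPM (-0.55, -0.99 to -0.11), both named after their values were seen. Of the 13 at 50 CPM or more in both libraries, 10 had intervals above 0, 0 had intervals below 0 and 3 reached 0. Among the 3023 genes, taken at 50 CPM in either library rather than in both, 20.3% had intervals above 0, and under that filter Oca2, a melanosomal transporter gene at 39.8 and 52.0 CPM (0.38, 0.16 to 0.62), would also enter. Counts were not matched in this comparison either. Among those 13, S100b, a calcium-binding protein gene of neural crest cells, had the largest log2 ratio at 0.79 (0.68 to 0.90), from 159 to 275 CPM. Pax3, a transcription factor gene that acts with SOX10 on Mitf, was at 146 and 181, a log2 ratio of 0.31 (0.19 to 0.43). The receptor gene Met was at 491 and 533 (0.12, 0.05 to 0.19), and the transcription factor gene Tfap2a at 53.7 and 52.0 (-0.05, -0.26 to 0.16). With 1 library per genotype, the genotype and the library cannot be told apart in these values.

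Genes with the most similar pattern were ranked by Pearson's r of log2 levels over 22 points, the 11 classes of both libraries. With the members left out, the 10 highest for the summed pigment genes were Adamts1, Scn8a, Gpr143, Kcnj13, Wasf1, Cdr2l, Nav3, Hmcn1, Cdc42ep5 and Evc2, with r from 0.95 to 0.96. The melanoma points lay far above all others and weigh heavily in this ranking, and r without them was not computed for these 10 genes. Of the members outside the sum, Ptgds and Sox10 had r of 0.96 each. Adamts1 was at 86.5 and 106 CPM in melanoma cells and at no more than 7.42 in an immune class. With members allowed, the 3 highest for Sox10 were Scn8a, Adamts1 and Fermt2 (0.97 each), for Ptgds Dct (0.96), Syt4 (0.95) and Pmel (0.94), and for Mitf Szrd1 (0.86), Etv1 (0.86) and Car9 (0.84). The r between Mitf and the pigment genes was 0.70 over all points and 0.17 over the 20 points without melanoma cells. Over those 20 points the members that are themselves part of the sum had r of 0.39 (Tyrp1), 0.48 (Tyr), 0.66 (Mlana), 0.91 (Pmel) and 0.95 (Dct), and Sox10 and Ptgds had 0.55 and 0.80. These values are a description over points that share libraries.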

How the data were processed

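Viable CD45+ cells sorted from B16 tumours were profiled with 10x Genomics 3' chemistry, with 1 library from WT and 1 from KO mice. The deposited matrix held UMI counts that the authors made with Cell Ranger 4.0.0 (version per the file headers) on mm10, not normalised, for 31053 genes and 14341 barcodes. A second table named each barcode's library. The study's methods state a removal of doublets and dead cells, but the deposited matrix still held 16 and 16 barcodes under 200 genes and 229 and 288 over 10% mitochondrial UMIs, so that it cannot be taken as filtered. Strand handling is not given in the sources used here.

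Barcodes with at least 200 genes and at most 10% mitochondrial UMIs were kept, as in the study's methods. Barcodes were gated on marker lists rather than clustered. An immune class needed 3 detected markers of 6, more than any class of its own lineage, no class of another lineage at over 50% of that number, and a leucocyte level of at least 25% of the median barcode, and classes with 20 or more barcodes in each library were used. Counts were summed by class and library and given per 1000000 UMIs of the class (CPM). Intervals (95%) are exact Poisson for levels, Clopper-Pearson for shares, conditional binomial for ratios and normal on the log scale for the ratio of cell shares. Log2 ratios over all genes and the pattern ranking (genes at 20 CPM or more in some class) carry a pseudocount of 1. Thinning to 1000 UMIs was without replacement. Doublets were not removed here, and Scrublet removal at 0.8% per 1000 barcodes (278 and 571 barcodes) was an alternative. Tools were python 3.11.15, numpy 2.4.6, scipy 1.17.1, pandas 2.3.3, scanpy 1.11.5 and matplotlib 3.10.9. Coordinates came from GENCODE M21 and promoters from RefSeq, matched by symbol.

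The named genes were the 8 members, 22 other pigment cell genes with values for those at 50 CPM (Kit, Sox9 and Oca2, below it in 1 or both libraries, were added after their values were seen), the 10 genes most like the summed pigment genes, and the 3 most like Mitf, Sox10 and Ptgds. The members and all lists were chosen with earlier results of these data known.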

Additional observations from a re-analysis of the deposited data

How the results depend on the processing

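No paired analysis was possible because each genotype had 1 library and no test was made, and for the same reason no replicate could be left out. The log2 ratio of the melanoma cell share (0.23, KO over WT) stayed within counting error under all 8 alternatives (0.11 to 0.30). The summed level of the 8 members (0.12) was 0.13 with the leucocyte threshold at 10%, 0.13 at 50%, 0.10 with no member in the gate, 0.13 after removing the highest Scrublet scores, 0.076 as the mean of cells, 0.074 after thinning, 0.14 without mitochondrial, ribosomal protein and haemoglobin UMIs, 0.15 after subtracting the median ratio of genes, and 0.17 without melanoma barcodes that met another class. Sox10 and Ptgds turned to -0.017 and -0.22 as the mean of cells and to -0.50 and -0.26 after thinning.

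The share of member UMIs in melanoma cells (94.0% in WT and 95.7% in KO) was 89.1% and 90.9% with the leucocyte threshold at 10%, 95.8% and 96.9% at 50%, 93.8% and 95.6% with no filter on barcodes, 96.0% and 97.0% without the highest Scrublet scores, and 70.9% and 74.7% without melanoma barcodes that met another class, which by construction moves those barcodes out. With no member in the gate this share was 94.1% and 95.8%.

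The pigment gene level of macrophage-like over T-like cells in WT (-0.05) was -0.28 without mitochondrial, ribosomal protein and haemoglobin UMIs, -0.44 with no filter, 0.60 without pigment-high barcodes, 0.51 without the barcode with the most pigment gene UMIs, and 1.47 per barcode. In KO (0.75) it was 0.42 without the highest Scrublet scores, -0.076 as the mean of cells, -0.041 after thinning, 1.07 with 4 markers needed, 0.41 without pigment-high barcodes, 0.42 without the top barcode and 1.92 per barcode. The level in macrophage-like cells, KO over WT (0.47), was 0.10 without the highest Scrublet scores, -0.043 as the mean of cells, 0.23 after thinning, 0.054 without pigment-high barcodes and 0.12 without the top barcode. The cause of these shifts was not tested beyond the barcodes named. The alternatives that left out barcodes meeting another class, kept leucocyte-low barcodes in their class, counted per barcode, or left pigment-high barcodes out of the Pmel share were chosen after seeing the data. In the smaller immune classes many values rest on a few UMIs.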
